A study of Homo sapiens with 33 samples.

Results

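Keratins are the intermediate filament proteins of epithelial and mesothelial cells. The genes described here are the rows of the expression matrix whose name is KRT followed by a number from 1 to 99 and an optional A, B or C, without pseudogenes and keratin-associated proteins, and 54 of the 58302 genes met this rule. RNA was sequenced from established cell lines kept in RPMI-1640 with serum. H2052, H2452, H28 and MSTO-211H are malignant pleural mesothelioma (MPM) lines sensitive to palbociclib, an inhibitor of CDK4 and CDK6. Resistance was represented by MPP89, an RB1-mutated MPM line, and by MeT-5A, normal mesothelial cells immortalized by SV40, both serving as pRb-deficient models.

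Treatment lasted 9 or 10 days, with palbociclib at 1 µM or the vehicle DMSO at 0.1%, in 2 pairs of libraries of H2052, 3 each of H2452, H28 and MSTO-211H, 2 of MPP89 and 1 of MeT-5A. In each sensitive line 1 more library came from cells kept for 48 h without the drug after the treatment (washout), and MeT-5A has 1 library of untreated cells. No other agent was added in any group. Each line is a single cell population grown in culture, so the spread between replicates is that between experiments on that line, and in bulk RNA fewer cells with a transcript cannot be told apart from less of it per cell. Levels are CP20M, the authors' counts scaled to a common total of 20000000 reads and rounded up to whole numbers.

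A keratin filament is built from pairs of a type I (acidic) and a type II (basic) keratin, so that each cell type is recognized by the pairs it makes. Simple epithelia and mesothelium make KRT8 and KRT18, often with KRT7 and KRT19. Basal cells of stratified epithelia make KRT5 and KRT14, injured or hyperproliferative ones KRT6, KRT16 and KRT17, and the hair follicle its own set. Pathologists use KRT5 and KRT6 to tell mesothelioma from lung adenocarcinoma.

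Of the 54 keratins, 28 were type I and 26 type II. In the GENCODE 44 annotation of GRCh38 all type II genes lie on chromosome 12 and all type I genes on chromosome 17, except KRT18, which lies next to KRT8 on chromosome 12. Testing required 100 CP20M or more in any of the 33 libraries, and 14 keratins passed. They were all 5 simple epithelial keratins (KRT7, KRT8, KRT18, KRT19 and KRT20), KRT15 of 3 basal keratins, KRT17 of 5 wound keratins, KRT4 and KRT10 of 13 keratins of differentiated stratified epithelia, KRT33B, KRT34, KRT81 and KRT86 of 17 hair keratins, and KRT80. None of the 9 keratins of the inner root sheath and companion layer passed, where the highest value was 19 CP20M. KRT20 passed only through H28 libraries given palbociclib, with or without washout, and KRT4 only through a single library at 100 CP20M. Among the 40 keratins below the limit the highest was KRT14, at 30 CP20M in MPP89, and KRT27, KRT74 and KRT76 were listed at 0 in every library. KRT5 did not exceed 22 CP20M in any library.

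Promoters are shown for 3 genes on which the results below turn, the hair keratin neighbours KRT34 and KRT33B, whose highest levels were both in H2052, and KRT20, which had the largest palbociclib response. The sequences are those of RefSeq on GRCh38.p14, from 250 bases before the start of the gene to 50 after it, on the minus strand, at chr17:41382257-41382556, chr17:41369764-41370063 and chr17:40885193-40885492. Capitals mark the TATA box letters TATAAA on either strand.
KRT34: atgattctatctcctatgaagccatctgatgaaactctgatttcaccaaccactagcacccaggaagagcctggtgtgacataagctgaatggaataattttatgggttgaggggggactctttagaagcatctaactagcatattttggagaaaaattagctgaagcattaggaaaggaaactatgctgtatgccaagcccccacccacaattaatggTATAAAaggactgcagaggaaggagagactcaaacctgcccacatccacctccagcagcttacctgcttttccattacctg
KRT33B: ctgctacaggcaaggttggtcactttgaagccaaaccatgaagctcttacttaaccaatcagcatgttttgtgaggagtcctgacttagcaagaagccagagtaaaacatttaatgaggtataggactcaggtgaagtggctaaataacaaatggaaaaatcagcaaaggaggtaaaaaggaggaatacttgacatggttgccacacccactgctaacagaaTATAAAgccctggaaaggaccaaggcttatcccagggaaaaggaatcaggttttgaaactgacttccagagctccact
KRT20: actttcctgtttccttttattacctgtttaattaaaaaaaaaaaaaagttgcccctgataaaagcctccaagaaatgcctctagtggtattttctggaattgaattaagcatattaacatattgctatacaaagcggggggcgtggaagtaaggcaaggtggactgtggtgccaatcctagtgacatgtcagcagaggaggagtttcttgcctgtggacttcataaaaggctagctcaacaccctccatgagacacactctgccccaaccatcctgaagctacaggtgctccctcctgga
The box lies at position -31 in KRT34 and -28 in KRT33B, counted from the start of the gene, and these letters are not in the KRT20 window. RefSeq promoters were listed for 34 of the 54 keratins, as 38 windows. TATAAA is in 21 of the 38 windows and in 11.5% of all 35116 promoter windows. The SP1 letters GGGCGG are in 6 of the 38 and in 15786 of all 35116. The AP-1 letters TGANTCA are in 0 of the 38 and in 7.71% of all, and the grainyhead letters AACCNGTT are in 1 of the 38 and in 1.73% of all. These counts describe the windows and were not tested.

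In DMSO the keratins separated the lines by kind as well as by amount. Among all genes tested, 94.6% differed among the 6 lines in limma's F test (Benjamini-Hochberg FDR under 0.05 and a span of line means above 1.5-fold on the log2(CP20M + 10) scale), and 13 of the 14 keratins did, so the share by itself does not set keratins apart. The exception was KRT10, at 107 to 307 CP20M in all 33 libraries (adjusted p = 0.448).

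**Figure D1:**
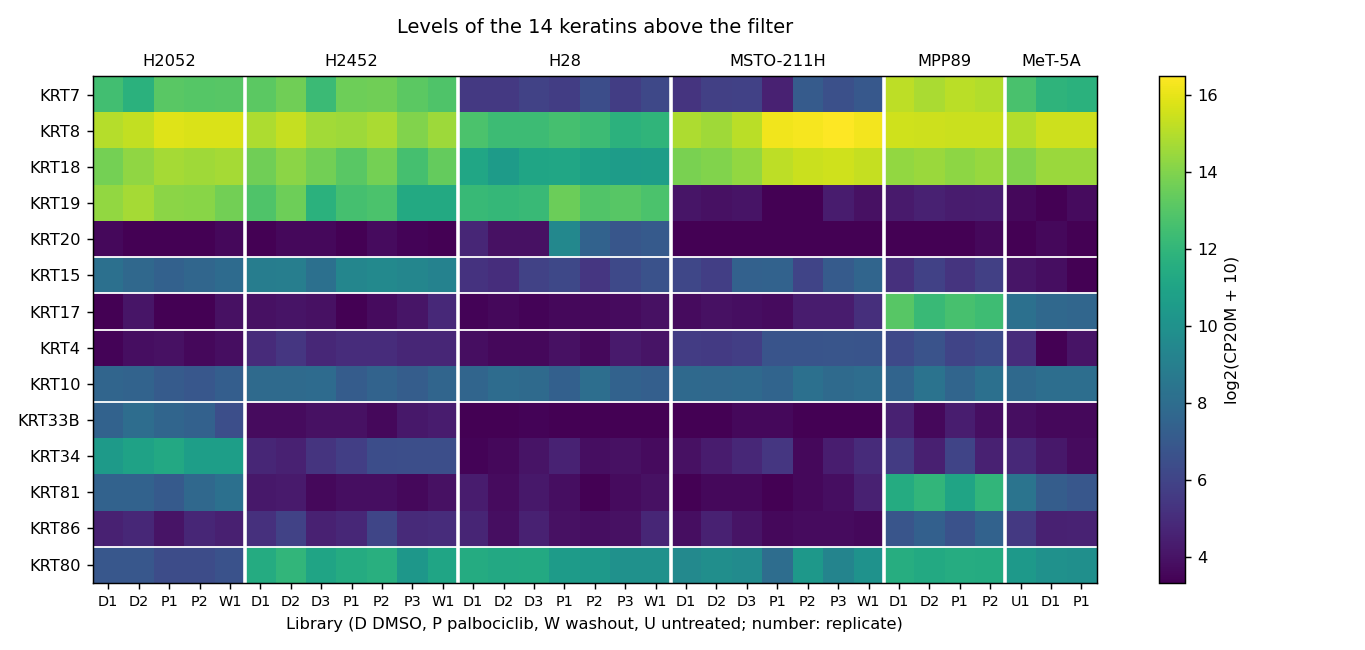
Level of each of the 14 keratins above the limit (rows, grouped by class) in each of the 33 libraries (columns, grouped by line), as log2(CP20M + 10) on a colour scale. KRT8 and KRT18 are lowest in H28, KRT19 is high only in H2052, H2452 and H28 libraries, and KRT17 and KRT81 are brightest in MPP89.

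KRT8 (ENSG00000170421, chromosome 12 from 52897187 to 52949954) and KRT18 (ENSG00000111057, chromosome 12 from 52948871 to 52952906), the first keratin pair of simple epithelia, were detected in all 33 libraries. KRT8 stood at 47113 and 45602 CP20M in the DMSO libraries of MPP89, 45413 in MeT-5A, 33504 and 40137 in H2052, 29711, 41387 and 26119 in H2452, and 29735, 25085 and 35008 in MSTO-211H. H28 was far lower, with 6950, 5157 and 5204 CP20M. The ranges of H2052, H2452 and MSTO-211H overlapped, and that of H28 lay below all others.

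KRT18 followed the same order of lines at the low end. It stood at 2196, 1497 and 2124 CP20M in H28 and between 12766 and 23548 in the DMSO libraries of the other 5 lines. Against the mean of these lines H28 was lower by 3.26 on the log2 scale for KRT18 (SE 0.17, adjusted p = 8.72e-09) and the difference for KRT8 was -2.71 (SE 0.16, adjusted p = 2.27e-08). The untreated MeT-5A library had 31545 CP20M of KRT8 and 15976 of KRT18, below the DMSO library of the same line. Across the 6 line means the log2 levels of KRT8 and KRT18 correlated with r = 0.99, a description over 6 lines that each contribute 1 to 3 libraries. Per length of the canonical transcript (1784 and 1413 bases), the KRT8 level was between 1.23 and 2.73 times that of KRT18 in every library.

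KRT19 (ENSG00000171345), the smallest keratin and a frequent partner of KRT8 in place of KRT18, was either abundant or nearly absent. H2052 had 20856 and 26295 CP20M in DMSO, H2452 had 7348, 12352 and 3334, and H28 had 4646, 4295 and 4877. MSTO-211H had at most 7 CP20M in DMSO, MPP89 had 9 and 13, and MeT-5A was listed at 0. The abundant and the nearly absent groups of lines did not overlap. H28, the line with the least KRT8 and KRT18, thus had KRT19 at a level above that of KRT18 in each of its DMSO libraries, and KRT19 made up a mean of 68.8% of its type I keratin per kb (n = 3), against 56.2% in H2052 (n = 2) and 31.7% in H2452 (n = 3).

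KRT7 (ENSG00000135480), the type II keratin of ducts and mesothelium, was arranged differently. It stood at 36778 and 28925 CP20M in MPP89, 9234, 12716 and 4925 in H2452, 5736 and 3430 in H2052, and 3799 in the DMSO library of MeT-5A. H28 had 36, 35 and 50 CP20M and MSTO-211H 29, 46 and 49, and the ranges of these lines overlapped. The mean of MPP89 was 653 times that of H28 after adding 10 to each. H2052 and H2452 therefore held all 4 common simple keratins, MPP89 and MeT-5A had little or no KRT19, H28 little KRT7, and MSTO-211H little of either. KRT20, the intestinal and Merkel cell keratin, was at 17, 5 and 5 CP20M in H28 and at most 2 in the other DMSO libraries.

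**Figure D2:**
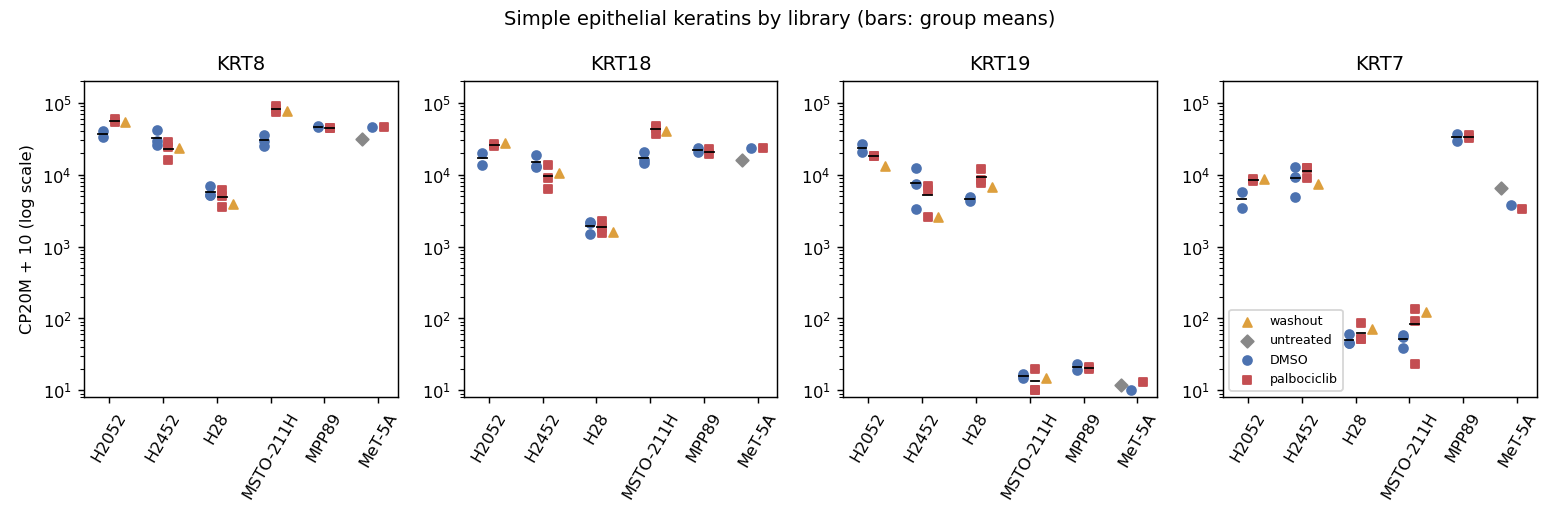
CP20M + 10 on a log axis for KRT8, KRT18, KRT19 and KRT7 in every library of the 6 lines, with bars at group means of 2 or 3 libraries. In MSTO-211H the 3 palbociclib libraries of KRT8 (73987 to 91185 CP20M) lie above the 3 DMSO libraries (25085 to 35008), while in MPP89 the conditions overlap for KRT18, KRT19 and KRT7.

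The tested keratins outside the simple class, KRT10 apart, differed among the lines, and some were high mainly in a single line. KRT17, an injury keratin, was at 8579 and 4825 CP20M in MPP89, 208 in MeT-5A and at most 7 in the DMSO libraries of the other lines, and MPP89 differed from the other 5 lines by 8.11 on the log2 scale (SE 0.22, adjusted p = 8.88e-11). It made up a mean of 22.0% of the type I keratin per kb in MPP89. KRT81, a hair cortex keratin, was also highest in MPP89, at 2714 and 4004 CP20M, with 165 and 169 in H2052, 137 in MeT-5A and at most 10 elsewhere in DMSO. KRT86, its hair cortex relative, was at 102 and 156 CP20M in MPP89 and at most 51 in any other DMSO library.

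KRT34 (ENSG00000131737) was at 1452 and 1894 CP20M in H2052 and at most 39 in the DMSO libraries of other lines, a log2 difference of 6.28 (SE 0.31, adjusted p = 1.93e-08). Its neighbour KRT33B was at 164 and 251 CP20M in H2052 and at most 13 elsewhere in DMSO, a log2 difference of 4.10 (SE 0.22, adjusted p = 3.68e-08). H2052 was thus the only line with more than 100 CP20M of both in its DMSO libraries. Both genes passed the limit only through H2052 libraries, so they had to be higher there, and these differences are descriptions. KRT80, a keratin of many epithelia, showed the opposite order, with 107 CP20M in each DMSO library of H2052 and 715 to 4011 in those of the other lines. KRT15, a keratin of basal cells, was at 466, 478 and 275 CP20M in H2452, 278 and 211 in H2052, and at most 159 in the other DMSO libraries. KRT4, a keratin of the oesophagus, did not exceed 94 CP20M in DMSO, where MPP89 was highest.

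Called keratins in each line against the other 5 were set against all genes. MPP89 had 8 keratins higher and 1 lower of 14, where 24.4% of all genes were higher and 14% lower. H28 had 3 higher and 10 lower, where 19.7% and 29.6% of all genes were higher and lower, and the median keratin differed by -1.15 on the log2 scale against -0.08 for all genes. H2052 had 6 higher and 3 lower, with 20.5% and 22.5% of all genes. H2452 had 4 higher and 4 lower, with 18.2% and 29.3%. MSTO-211H had 1 higher (KRT4) and 7 lower, with 21.5% and 23% of all genes, and MeT-5A had 5 higher and 5 lower, with 24.3% and 15.8%. The lone MeT-5A library was assumed to vary like the other lines. The keratins that passed the limit through a single line had to differ there. Those that passed only through other lines were by that choice more likely to be lower in the rest. In H28 the lower ones of this kind included KRT4, KRT17, KRT33B, KRT34 and KRT86. In MSTO-211H they included KRT17, KRT33B, KRT34 and KRT86. The lower counts and the H28 median thus rest in part on the limit, and all these counts describe the 14 without a test of the list.

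In all, keratin RNA took from 0.0686% of a library (H28 in DMSO) to 0.700% (MSTO-211H under palbociclib), with a median of 0.328%. In DMSO it took a mean of 0.572% ± 0.032 (SD, n = 2) in MPP89, 0.422% ± 0.058 (n = 2) in H2052, 0.338% ± 0.103 (n = 3) in H2452, 0.241% ± 0.038 (n = 3) in MSTO-211H, 0.0760% ± 0.0077 (n = 3) in H28 and 0.372% in MeT-5A. Simple epithelial keratins made up 80.1% to 99.3% of it. The sum of type II keratins per kb was 2.43 times that of type I in MPP89 and below that of type I in H2052 (0.790 times) and H28 (0.816 times). Per kb values rest on canonical transcript lengths, since the lengths counted by the authors are not given in the sources used here.

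**Figure D3:**
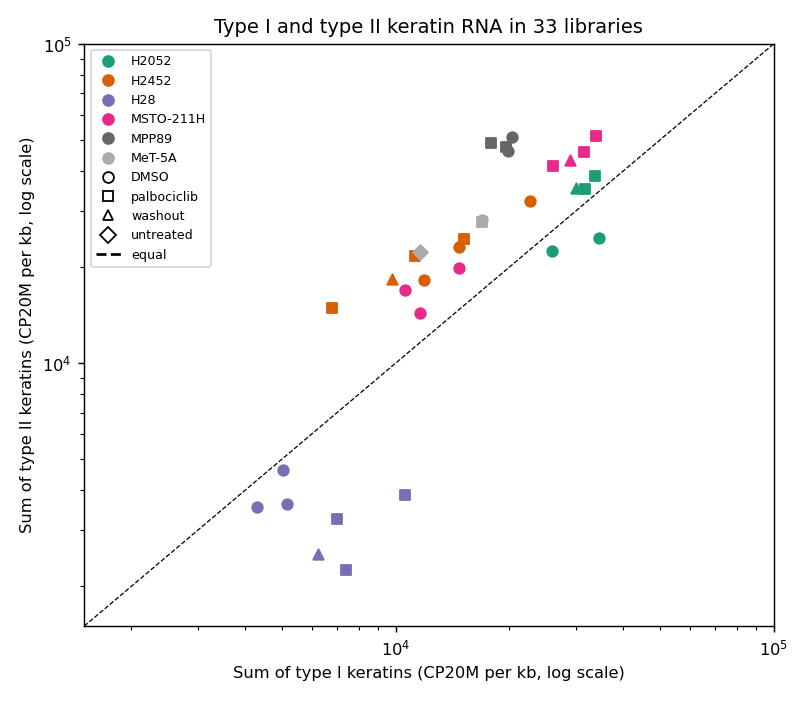
Sum of type II against sum of type I keratin levels, in CP20M per kb of canonical transcript on log axes, for 33 libraries coloured by line, with the shape for the condition and a dashed line at equal sums. H28 libraries sit lowest and below the line, and palbociclib libraries of MSTO-211H sit above and to the right of its DMSO libraries.

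The labelled cell type was set beside its markers, and the keratin pattern beside other epithelial genes. The 8 mesothelial markers summed to 5372 to 6743 CP20M in DMSO libraries of H2052, 4098 to 4317 in MPP89, 1981 to 2345 in H2452, 759 to 1272 in MSTO-211H, 563 to 1940 in H28 and 750 in MeT-5A. MSLN (mesothelin) was at 1 to 9 CP20M in H28, and WT1 and UPK1B were at 0 in MeT-5A, so these defining markers are absent or nearly so there. Other members of the list were higher in the same lines: of 7 tested, H28 had 3 called higher than the other 5 lines (UPK1B at 202 to 1002 CP20M, LRRN4 and UPK3B) and 3 lower, and MeT-5A had 2 higher (CALB2 at 404 CP20M and PDPN at 200) and 4 lower. The 5 lung epithelial markers summed to at most 63 CP20M in DMSO. CDH1 (E-cadherin) was at 783 and 1076 CP20M in MPP89, 39 in MeT-5A and at most 5 in the DMSO libraries of the other lines. Of the 9 epithelial genes tested, MPP89 had 4 higher than the other 5 lines, CDH1 among them, and 4 lower, among them CLDN4 (claudin 4) and ESRP2. H28 had 2 higher, ELF3 at 1385 to 3270 CP20M and CLDN4 at 1363 to 1912, and 6 lower. Of all genes in the same contrasts, 19.7% were higher and 29.6% lower in H28, and 24.4% and 14% in MPP89. In MeT-5A 24.3% were higher and 15.8% lower. The counts of the mesothelial and epithelial lists were not tested against these shares. Leukocyte markers summed to 123 to 1234 CP20M with CD3E at 0, and endothelial markers to 3 to 150. Fibroblast markers summed to 73657 and 90212 CP20M in MPP89, 9676 in MeT-5A and 106 to 5516 elsewhere.

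Of 5 keratinocyte markers in the matrix, FLG (filaggrin) was at 1558 to 22225 CP20M in H28 in DMSO while LOR, IVL, TP63 and KRTDAP were at 0 there. DSP (desmoplakin), which ties keratins to desmosomes, was at 120 to 163 CP20M in H2452 and 31 to 76 in MSTO-211H, against 2971 to 6772 in the DMSO libraries of the other lines. The part of these genes in the keratin levels was not tested.

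Palbociclib moved keratins in different directions in different sensitive lines. Over the 11 pairs of sensitive lines 0 of the 14 keratins were called (FDR under 0.05 and fold change above 1.5, pair as a block), where 5.58% of all genes were called higher and 9.37% lower. Each line gave several of these pairs, and pairs served as the replicates, so SE and p over them do not measure the spread among lines. At an unadjusted p under 0.05 there were 7 keratins. KRT80, KRT10 and KRT7 had an adjusted p under 0.05 with changes too small to be called. KRT80 had a log2 difference of -0.58 (SE 0.15, adjusted p = 0.00617), just short of 1.5-fold, and was higher under palbociclib in 1 of 11 pairs. KRT7 had 0.47 (SE 0.17, adjusted p = 0.0342) and was higher in 8 of 11 pairs.

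The lines themselves differed. In the F test of the response among the 4 sensitive lines 5 of 14 keratins were called (KRT20, KRT8, KRT18, KRT19 and KRT4), close to the 33.2% of all genes. KRT20 and KRT4 are among them although each passed the limit only through the palbociclib or washout libraries of a single line. The responses of KRT8 and KRT18 ran together over the 11 pairs, which share 4 lines, with r = 0.97.

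MSTO-211H showed the largest rise of KRT8 and KRT18. KRT8 went from 29735, 25085 and 35008 CP20M in DMSO to 73987, 81066 and 91185 under palbociclib, and KRT18 from 14721, 16176 and 20496 to 36455, 44308 and 47685. The conditions did not overlap and all 3 pairs rose. The log2 differences were 1.46 (SE 0.21, adjusted p = 0.0363) for KRT8 and 1.33 (SE 0.15, adjusted p = 0.0349) for KRT18. KRT4 rose from 40, 37 and 44 to 95, 98 and 100 CP20M, a log2 difference of 1.10 (SE 0.14, adjusted p = 0.0354), but was tested only because 1 of these palbociclib libraries reached 100 CP20M, so this call is a description. With no limit on low values KRT4 was not called. These were 3 keratins higher, KRT4 included, and 0 lower, where 5.9% of all genes were higher and 7.94% lower. Keratin RNA went from a mean of 0.241% to 0.630% ± 0.072 (n = 3) of the library. From only 2 of the 3 pairs, whichever was dropped, none of the 17803 genes was called by limma, while a single fit over all lines called 4 or 5 keratins with each pair of MSTO-211H dropped in turn.

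In H28 the called keratins were KRT20, KRT19 and KRT80, and not KRT8 and KRT18. KRT20 went from 17, 5 and 5 CP20M in DMSO to 690, 166 and 103 under palbociclib, and the conditions did not overlap. The log2 difference was 3.72 (SE 0.38, adjusted p = 0.0266), which understates a rise from so low a level. KRT20 was tested only because its H28 libraries under palbociclib and after washout reached the limit of 100 CP20M, so it had to be higher there, and the call is a description. It did not exceed 3 CP20M in any library of another line. KRT19 went from 4646, 4295 and 4877 to 11798, 7601 and 8464 CP20M, a log2 difference of 0.99 (SE 0.14, adjusted p = 0.0301) with a rise in 3 of 3 pairs. KRT80 fell from 2674, 2433 and 2516 to 1481, 1326 and 1009 CP20M (log2 difference -1.01, SE 0.12, adjusted p = 0.0267).

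In H28 KRT8 and KRT18 had log2 differences of -0.26 (SE 0.13, adjusted p = 0.211) and -0.06 (SE 0.16, adjusted p = 0.808). The 2 keratins higher, KRT20 included, and 1 lower stood where 5.89% of all genes were higher and 7.34% lower. The ratio of type II to type I keratin per kb was 0.700 to 0.920 in DMSO and 0.305 to 0.463 under palbociclib. As in MSTO-211H, no gene was called in H28 from only 2 pairs, and the single fit over all lines called 2 to 4 keratins with each pair of H28 dropped.

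In H2452 the main pair fell. KRT18 went from 12766, 18914 and 13018 CP20M to 8894, 13560 and 6292, lower in each of the 3 pairs although the conditions overlapped (log2 difference -0.68, SE 0.14, adjusted p = 0.0374). KRT8 went from 29711, 41387 and 26119 to 23986, 28455 and 15932 CP20M, and its difference of -0.52 (SE 0.12, adjusted p = 0.0432) was below 1.5-fold. KRT34 rose from 17, 13 and 30 to 45, 76 and 80 CP20M (log2 difference 1.37, SE 0.21, adjusted p = 0.0233). It passed the limit only through H2052 libraries and did not reach 100 CP20M in H2452. With the limit applied to the H2452 libraries alone it was not tested. KRT15 rose from 466, 478 and 275 to 648, 709 and 653 CP20M (log2 difference 0.75, SE 0.18, adjusted p = 0.0483). KRT10 fell from 223, 222 and 236 to 134, 173 and 136 CP20M (log2 difference -0.60, SE 0.13, adjusted p = 0.0389).

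These were 2 higher, KRT34 included, and 2 lower, where 6.04% of all genes were higher and 10.8% lower. With median-of-ratios scaling the KRT18 difference was -0.48 (adjusted p = 0.0639) and that of KRT10 -0.41 (adjusted p = 0.0713), so that neither was called, and the split became 2 higher and 0 lower. Without the replicate block KRT34 was called higher and KRT10 lower, and KRT18 had an adjusted p of 0.185. The call of KRT15 held least often, in 4 of 14 alternatives, with adjusted p from 0.0101 to 0.277. Without replicate 1 or replicate 3 of H2452 0 keratins were called, and without replicate 2 there was 1.

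H2052 had 0 called keratins of 14, where 4.67% of all genes were higher and 13% lower, and 3 keratins had an unadjusted p under 0.05. Both pairs went the same way for KRT7, KRT8, KRT18 and KRT19. KRT7 went from 5736 and 3430 to 8697 and 8270 CP20M (log2 difference 0.93, SE 0.20, adjusted p = 0.0602), KRT8 from 33504 and 40137 to 58916 and 53484 (0.61, SE 0.22, adjusted p = 0.126), KRT18 from 13710 and 19969 to 26326 and 24687 (0.62, SE 0.22, adjusted p = 0.121) and KRT19 from 20856 and 26295 to 18404 and 17981 (-0.36, SE 0.16, adjusted p = 0.181). The conditions did not overlap for these 4, nor for KRT10, KRT15 and KRT80, which were lower in both pairs. With only 2 libraries in each condition groups separate easily. The share of all genes without overlap was not counted, so this is a description. The fit of 2 pairs leaves 1 residual degree of freedom for each gene. With genes filtered within it KRT7, KRT8 and KRT18 were called higher and KRT10 lower.

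**Figure D4:**
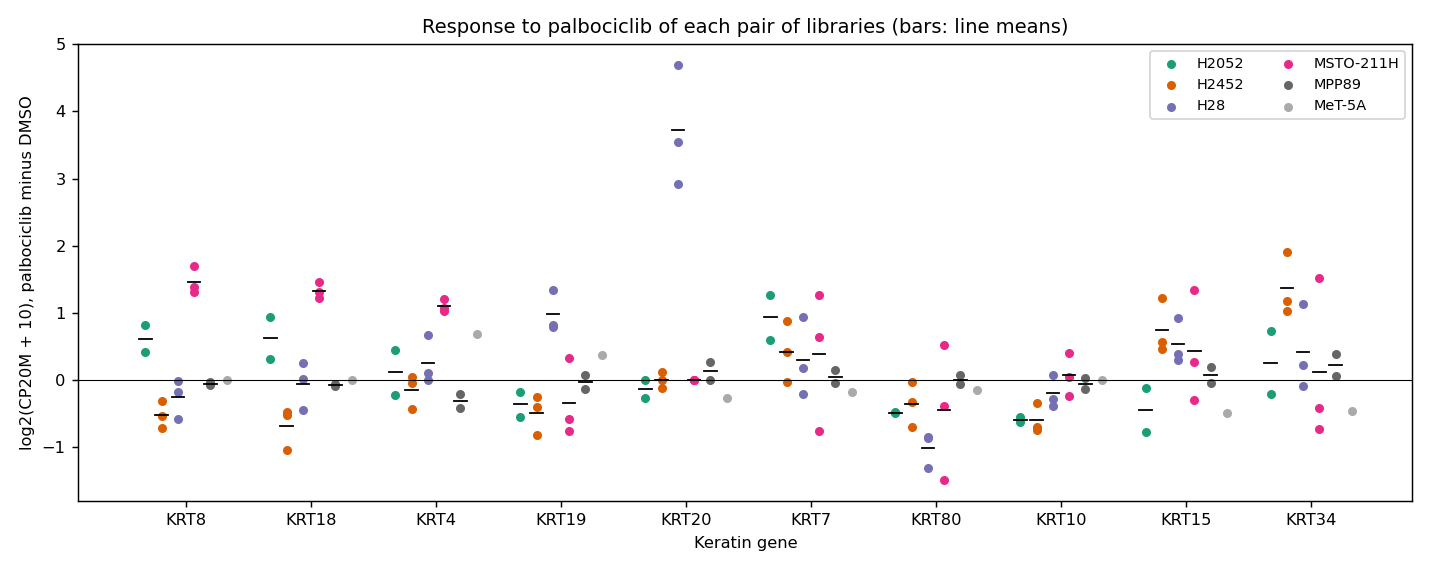
Difference in log2(CP20M + 10) between the palbociclib and the DMSO library of each pair, for 10 keratins in 6 lines, with bars at line means of 2 or 3 pairs. The pairs of MSTO-211H stand highest for KRT8, KRT18 and KRT4, those of H28 for KRT19 and KRT20, and the line mean of H2452 is the lowest for KRT8 and KRT18.

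The resistant lines showed no called keratin, as 0% of all genes were called in either direction over their 3 pairs. There were 1258 genes, with 1 keratin among them (KRT81), at an unadjusted p under 0.05. In MPP89, KRT8 was at 47113 and 45602 CP20M in DMSO and 44587 and 44432 under palbociclib, and KRT7 at 36778 and 28925 against 35750 and 31957. MeT-5A had 45413 CP20M of KRT8 in DMSO and 45227 under palbociclib. KRT8 differed by -0.04 (SE 0.05, adjusted p = 0.836) and KRT18 by -0.05 (SE 0.04, adjusted p = 0.761) over these pairs. In the test of the difference between sensitive and resistant lines 0 of 14 keratins were called and 0 had an unadjusted p under 0.05, where 1.13% of all genes were called with a higher and 5.62% with a lower response in the sensitive lines. The difference for KRT8 was 0.34 (SE 0.46, adjusted p = 0.675), so the error exceeded the difference.

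Genes that anchor keratins or accompany them were counted in the same fits. Of 20 desmosome and cytolinker genes 15 were tested, and over the sensitive lines 3 were called higher and 0 lower, where 5.58% of all genes were called higher and 9.37% lower, with a median log2 difference of 0.10 against -0.11 for all genes and 0.13 for the 14 keratins. The 3 were PERP, a desmosomal membrane protein (0.91, SE 0.09, adjusted p = 5.2e-06), the cadherin DSG2 (0.61, SE 0.10, adjusted p = 0.00038) and JUP, plakoglobin (1.44, SE 0.40, adjusted p = 0.00871). Here too pairs and not lines were the replicates. JUP rose most in MSTO-211H, from 6 to 22 CP20M in DMSO to 115 to 513 under palbociclib. There DSC2, another desmosomal cadherin, fell (-1.30, SE 0.17, adjusted p = 0.0355), as did the plakophilin PKP2 in H28 (-0.94, SE 0.11, adjusted p = 0.0271).

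Against the same shares of all genes, 9 of 18 epithelial genes were tested, and MUC1 was called higher and the splicing regulator ESRP2 lower over the sensitive lines. Of 10 mesenchymal genes, all tested, FN1 and SPARC were higher and 0 were lower, while VIM (vimentin), the filament protein of mesenchymal cells, was at 37990 to 46484 CP20M in DMSO and 31774 to 54977 under palbociclib in MSTO-211H. Of 7 mesothelial genes tested out of 8, CALB2 (calretinin) and UPK1B were higher and 0 were lower. In the resistant lines 0 genes of these lists were called. Of the markers of other cell types, 2 fibroblast genes were called higher and 1 lower out of 4 tested over the sensitive lines, and 0 of the keratinocyte, leukocyte and endothelial markers tested, and their part in the keratin responses was not tested.

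After 48 h of washout KRT8 and KRT18 of MSTO-211H and KRT20 and KRT80 of H28 stood nearer to their palbociclib than to their DMSO levels, while KRT8 and KRT18 of H2452 stood nearer to DMSO. Over the 4 lines, 1 library each, 0 of 14 keratins were called between washout and palbociclib, where 1.4% of all genes were called higher and 0% lower, and 1 keratin had an unadjusted p under 0.05. Washout libraries were set beside the pair of their line with the same 10 days of treatment, taken as the same experiment. In MSTO-211H, KRT8 was at 35008 CP20M in DMSO, 91185 under palbociclib and 76579 after washout, and KRT18 at 20496, 47685 and 40479. In H28, KRT20 was at 5, 103 and 120 CP20M, KRT19 at 4877, 8464 and 6811 and KRT80 at 2516, 1009 and 987. All 5 were nearer to palbociclib than to DMSO on the log2 scale, KRT19 by the least.

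H2452 differed in its main pair. KRT18 was at 13018 CP20M in DMSO, 6292 under palbociclib and 10482 after washout, KRT8 at 26119, 15932 and 23656, and KRT80 at 2022, 1239 and 2084, all nearer to DMSO after washout. KRT34 in H2452 stayed at 79 CP20M after washout, with 80 under palbociclib and 30 in DMSO. In H2052, KRT19 was at 26295 CP20M in DMSO, 17981 under palbociclib and 13231 after washout, and KRT7 at 3430, 8270 and 8552. With 1 washout library in a line, these values have no replicate check within the line.

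Against DMSO, washout libraries had 1 keratin higher and 0 lower, where 2.81% of all genes were higher and 2.95% lower. It was KRT7, at 3430, 4925, 50 and 49 CP20M in the DMSO libraries of H2052, H2452, H28 and MSTO-211H and at 8552, 7305, 62 and 113 after washout, higher in all 4 lines (log2 difference 0.80, SE 0.21, adjusted p = 0.0402). The call was lost without H2052, without H2452 and without MSTO-211H. These DMSO libraries also serve the comparison with palbociclib, so the 2 differences from DMSO are not independent. PERP and DSG2 were the 2 desmosome genes called higher after washout against DMSO, and 0 of that list differed from palbociclib.

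**Figure D5:**
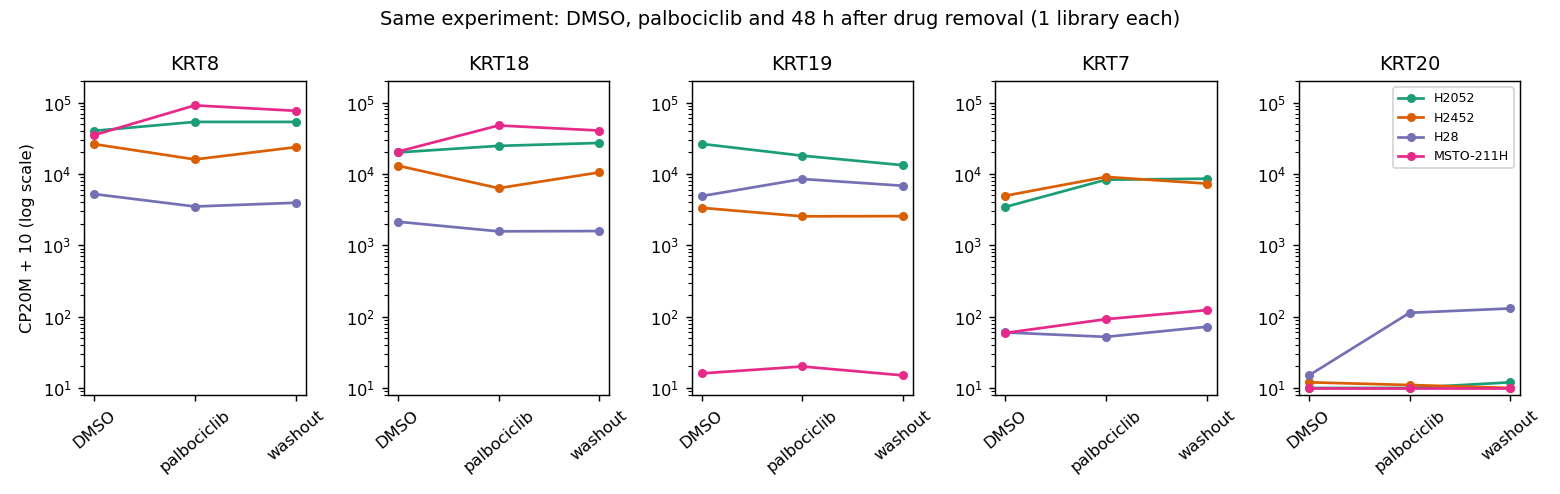
CP20M + 10 on a log axis for KRT8, KRT18, KRT19, KRT7 and KRT20 in the DMSO, palbociclib and washout libraries taken as the same experiment. There is 1 line of each colour for each sensitive cell line. KRT8 in MSTO-211H ends at 76579 CP20M, above its DMSO value of 35008, and KRT18 in H2452 ends at 10482, between palbociclib (6292) and DMSO (13018).

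Some keratins share sequence or position with other genes, which touches the levels above. Of the windows of 100 bases in the canonical transcript, 30.3% in KRT81 and 27.6% in KRT86 also occur exactly in a transcript of another gene, mainly each other and the pseudogene KRT87P, so the split between these hair keratins is uncertain. The shares were 7.12% for KRT8, 5.54% for KRT33B and below 1% for the other keratins tested. Rows of 50 KRT8 pseudogenes summed to 182 to 1135 CP20M a library, at most 9.01% of KRT8, and rows of 67 KRT18 pseudogenes to 101 to 429 CP20M, at most 11.8% of KRT18. KRT8 and KRT18 overlap on opposite strands in the annotation. So do, among others, KRT7 and KRT7-AS, KRT10 and KRT10-AS1, KRT80 and LINC00592, KRT17 and an unnamed gene, and KRT81 and KRT86. KRT7 and KRT86 overlap on the same strand, so strand cannot separate their reads there. The libraries were directional, and the strand setting of the counting is not given in the sources used here.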

How the data were processed

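RNA-seq was made from 33 libraries of 6 established cell lines. Per the labels and the methods, the authors made directional libraries, sequenced them paired-end, trimmed reads with Trimmomatic 0.36, mapped them with STAR 2.5.3 to GRCh38 and counted them with HTSeq 0.9.1. The deposited values are a score, gene counts scaled to a common total of 20000000 reads (CP20M) and rounded up to whole numbers, and not raw counts, so DESeq2, which the authors used, was not used here. Columns total from 20007662 to 20021400. Whole numbers skipped by the rounding gave the depth of 18 libraries, about 12800000 to 19900000 reads, and the depth of the other 15 is unknown. No interval was computed from it.

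Of 58302 genes, 17803 had at least 100 CP20M in at least 1 library and were tested as log2(CP20M + 10) with limma 3.58.1 (lmFit, eBayes with trend) in R 4.3.3. Called genes had a Benjamini-Hochberg FDR under 0.05 over all genes tested and a fold change above 1.5. DMSO and palbociclib libraries of the same experiment were a block, as in the authors' model. The labels number the DMSO and palbociclib replicates, and equal numbers in a line were taken as the same experiment. Libraries sharing a number deviated together from their group means (r between 0.18 and 0.78 over genes, not independent). The washout labels carry no number. Each washout library was placed with the pair of its line that was also treated for 10 days, and this match is an inference. Replicates had equal values in at most 4.33% of tested genes, so none were merged. The functions were tested on simulated data.

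Every keratin above the filter is named. Those with a mean of at least 1000 CP20M in DMSO in a line, or called under palbociclib or washout, are given by library. Members and gene lists were chosen with earlier results of these data known. Positions, transcript lengths and shared windows come from GENCODE 44, a different release from the authors' annotation. Alternatives were other scaling, pseudocounts of 1 and 50, other filters, no trend, no block, a single fit, line means, and leaving out pairs, libraries and lines.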

Additional observations from a re-analysis of the deposited data

Results flagged for a closer look

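The palbociclib responses of 5 keratins differed among the 4 sensitive lines in limma's F test of the responses, adjusted over all 17803 genes. The span between the highest and the lowest line on the log2 scale was 3.85 for KRT20 (adjusted p = 0.00012), 1.98 for KRT8 (adjusted p = 0.000252), 2.01 for KRT18 (adjusted p = 0.000678), 1.48 for KRT19 (adjusted p = 0.00543) and 1.24 for KRT4 (adjusted p = 0.013). KRT20 was tested only through H28 libraries under palbociclib or after washout, and KRT4 only through 1 palbociclib library of MSTO-211H, so their differences are descriptions. With no limit on low values KRT20 was called and KRT4 was not. MSTO-211H was the highest line for KRT8, KRT18 and KRT4 and H28 for KRT20 and KRT19, and H2452 was the lowest for KRT8, KRT18, KRT19 and KRT4. KRT8 and KRT18 were higher under palbociclib in all 3 pairs of MSTO-211H and in both pairs of H2052, and lower in all 3 pairs of H2452. Among all genes 33.2% differed among these lines by the same test.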

How the results depend on the processing

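Counts of called keratins stayed within 1.5 times the reported count in 76 of 89 cases with another scaling, pseudocount, filter, trend, block or unit. The cases include the resistant lines, sensitive against resistant lines and washout against palbociclib, with 0 keratins called throughout. They also include the differences among lines in DMSO, where 94.6% of all genes were called. The fraction therefore says little about the palbociclib calls. The count over the sensitive lines, 0 as reported, was 2 higher with median-of-ratios scaling, 2 lower with a pseudocount of 1, and 0 to 2 without each pair. In H2052 it was 0 as reported, 1 with median-of-ratios scaling, 1 with a pseudocount of 50, 4 with the filter within the fit, 3 with all 14 pairs in a single fit, and 0 to 2 in that fit without each pair. In H2452 the reported 4 became 2 with median-of-ratios scaling, 2 with no replicate block, and 0 to 1 without each pair. In H28 and MSTO-211H the reported 3 became 0 without any pair, since no gene was called from 2 pairs. Among the 4 sensitive lines the reported 5 became 3 with a pseudocount of 1, where KRT19 and KRT4 were lost, and 5 to 9 without each pair, with 9 reached without replicate 1 of MSTO-211H. For washout against DMSO the reported 1 became 0 with a pseudocount of 50, with no filter, without trend and with no replicate block, and 0 to 1 without each line. The causes were not tested. The replicate block changed no other count by over 1.5 times. Differences among lines in DMSO gave 12 to 13 keratins without each library, against 13 as reported, and each line against the other 5 gave 53 to 60 calls in all, against 57.

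Chosen after seeing the data, the single fit of 14 pairs without each pair gave 1 to 3 keratins in H2452, 2 to 4 in H28 and 4 to 5 in MSTO-211H, and leaving out each line gave 0 to 2 over the sensitive lines, where the mean response of KRT20 ran from -0.034 without H28 to 1.36 without H2452. Median-of-ratios scaling moved the median of all genes from -0.11 to 0.06 over the sensitive lines and from -0.24 to 0.03 in H2052 on the log2 scale. Rounding and unknown depth limit values of a few CP20M.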
